A study of Rattus norvegicus with 9 samples.

Results

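Knockdown of Yap1 in cardiomyocytes kept in high glucose was examined by comparing 3 libraries that had received an adenovirus with a short hairpin RNA (shRNA) against Yap1 with 3 that had received an adenovirus with green fluorescent protein (GFP), 6 of the 9 libraries in the study. The comparison took in every gene of the deposited table: 13708 of 18629 protein-coding genes had enough reads to be tested. The cells were primary cardiomyocytes from the hearts of Sprague-Dawley rats 1 to 2 days old. The genotype is labelled WT for GFP, Yap1 knock down for the shRNA and Yap1 overexpression for the Yap1 vector, after the virus each group received. All groups were plated for 18 to 20 h in medium with 10% serum, kept for 14 h in 1% serum and 1 g/L glucose, and then treated with 33 mM glucose and insulin at 100 nM over 48 h, which the study uses as a culture model of diabetes. A further group of 3 libraries, under the same treatment, had received an adenovirus with wild-type Yap1 and is used below only beside the knockdown. The labels name only GFP for the control virus and no control hairpin, so an effect of a hairpin as such and an effect of lower Yap1 cannot be told apart in these groups. Sources used here give neither the viral dose nor the sequence of the hairpin. The labels do not say whether the 3 replicates of a group came from separate rats, isolations or dishes, so the p-values measure the spread between these samples, which may be technical.

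YAP, the product of Yap1, is a transcriptional coactivator that has no DNA-binding domain of its own and acts on genes by binding TEAD transcription factors. The Hippo kinases MST and LATS phosphorylate YAP and its paralog TAZ (Wwtr1), which keeps them out of the nucleus. In the heart, YAP is best known for driving the proliferation of fetal and neonatal cardiomyocytes and for supporting their survival under stress. Sirt1, named with Yap in the study's title, encodes an NAD-dependent deacetylase of nuclear proteins.

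The shRNA libraries held 6103221 to 6357403 assigned reads and the GFP libraries 14868180 to 15368473, a mean ratio of 0.413. The 10 most abundant genes took 5.90% to 6.07% of reads with the shRNA and 7.78% to 8.18% with GFP. Levels below are CPM, reads per 1000000 assigned, after TMM scaling, and n is 3 libraries in each group. A gene was called higher or lower at a Benjamini-Hochberg adjusted p under 0.05 in edgeR's quasi-likelihood F test over all genes, and all adjusted p-values below are from this test. A range of log2 values or a fold given without an interval comes from the same fit.

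Yap1, the target of the hairpin, was lower by about 1 log2 unit. Yap1 (chr8:6109474-6204240, minus strand, build rn6) stood at 197, 198 and 189.8 CPM with GFP and 95.4, 95.99 and 95.3 CPM with the shRNA. The 3 shRNA libraries lay close together and all below the GFP libraries, a fall from 195 ± 4.37 CPM to 95.6 ± 0.3597 CPM (SD; log2 fold change -1.03, SE 0.11, adjusted p = 1.93e-06). In the libraries with the Yap1 vector the gene stood at 559, 812 and 622 CPM. Wwtr1, which encodes the paralog TAZ, was higher, at 29.6, 27.2 and 29.2 CPM with GFP and 49.4, 47.7 and 49.8 CPM with the shRNA (log2 fold change 0.77, SE 0.07, adjusted p = 1.65e-07). Its mean with the Yap1 vector, 38.6 CPM, was also above that with GFP (log2 difference 0.43, adjusted p = 6.23e-05). Sirt1 stood at 20.1, 20.5 and 19.9 CPM with GFP and 91.1, 84.9 and 90.8 CPM with the shRNA, with every shRNA library above every GFP library (log2 fold change 2.14, SE 0.09, adjusted p = 1.56e-10). Sirt1 was also higher with the shRNA than with the Yap1 vector, where its mean was 29.8 CPM (log2 difference 1.58, adjusted p = 1.14e-08).

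Most of the transcriptome differed between the groups. Of the genes tested, 10733 were called (78.3%), 5371 higher (39.2%) and 5362 lower (39.1%) with the shRNA. At least a 2-fold change was found for 2627 genes called higher (19.2%) and 2277 called lower (16.6%). The libraries of both groups did not overlap for 10993 genes (80.2%). The median log2 fold change was -0.01 and the middle 50% of genes lay between -0.70 and 0.75. Against this background a single call says little, and the groups below are described by how far their shares and medians lie from these values. In the authors' deposited table, 4873 genes were higher and 4728 lower at a q-value under 0.05, and 9595 genes were called in both analyses, all in the same direction. The median gene shifted to -0.15 with upper quartile scaling and to 0.16 on the deposited TPM, and differences of that size between groups of genes depend on the scaling.

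Ranked by the share of members changed at least 2-fold, the annotation terms of 15 to 300 tested genes fell into a few themes. Among GO terms, lymphocyte chemotaxis had the largest share higher (13 of 15 members, 86.7%), followed by positive regulation of chemokine production (68.4%) and the cellular response to interferon-beta (64.5%). The GO terms with the largest shares lower were ATP synthase activity (15 of 17, 88.2%), respiratory complex I (80%) and cholesterol biosynthesis (72%). Among Reactome terms, striated muscle contraction led the falls with 17 of 21 members (81%). The Reactome term for receptor binding of chemokines led the rises with 13 of 20 (65%). These shares stand beside 19.2% and 16.6% over all genes.

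**Figure D1:**
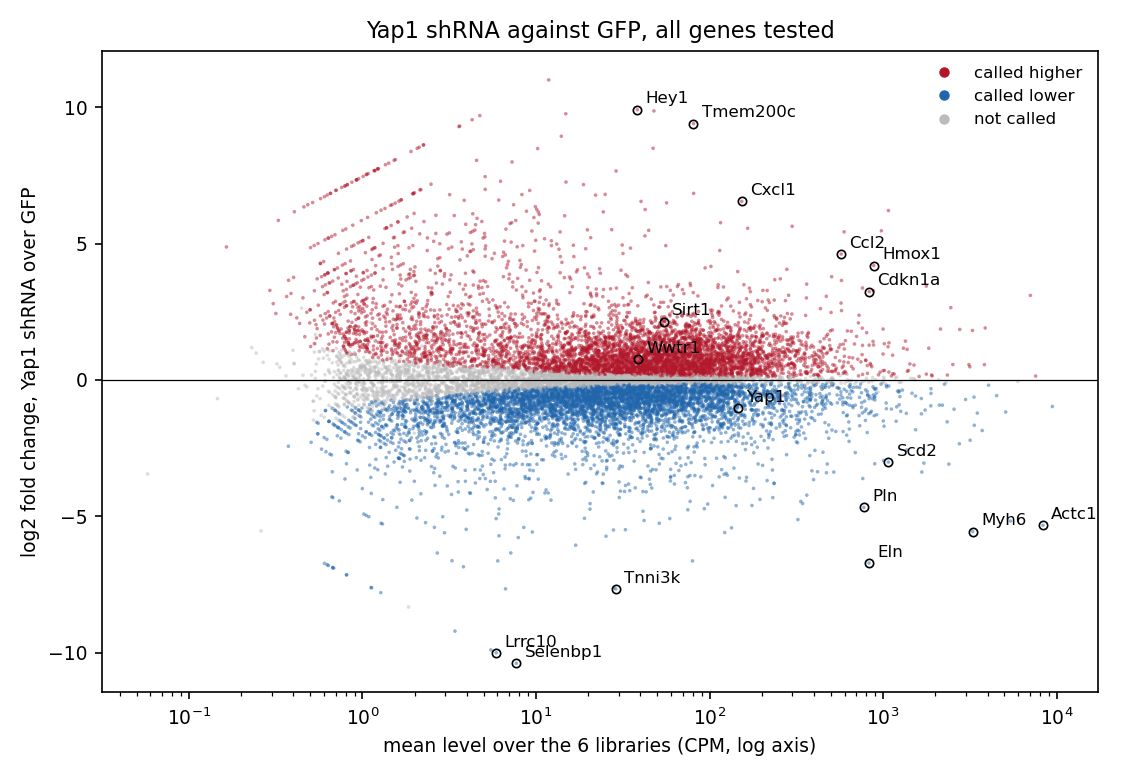
Log2 fold change of Yap1 shRNA over GFP (vertical axis) against the mean level over the 6 libraries in CPM (horizontal log axis) for 13708 genes, coloured by call. The 5371 genes called higher and 5362 called lower span the whole range of levels, and the muscle genes Myh6, Actc1 and Pln are among the most abundant genes that fell.

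The 12 largest rises were of genes almost silent in the GFP cells. Hey1, a transcriptional repressor downstream of Notch and BMP signals, stood at 0.139, 0 and 0.068 CPM with GFP and 83.3, 73.2 and 73.6 CPM with the shRNA, a ratio of 1124 (95% exact interval 384 to 5455) from 3 GFP counts. Tmem200c, a membrane protein gene, stood at 0.208, 0.203 and 0.272 CPM with GFP and 159, 157 and 168 CPM with the shRNA (log2 fold change 9.4, SE 0.17, adjusted p = 1.00e-12). Nell2, which encodes a secreted glycoprotein of neurons, stood at 0.0694, 0.135 and 0.068 CPM with GFP and 90.6, 99.9 and 96.1 CPM with the shRNA (log2 fold change 9.86). The other rises included genes best known outside the heart. Sox21, a transcription factor of neural progenitors, reached 29.7 CPM from 1 GFP count, and the synaptic organiser Cbln2 rose from 0.2497 to 94.4 CPM (8.49). Eomes, a T-box factor of early embryos and lymphocytes, reached 12.4 CPM, a ratio of 182 (95% exact interval 61.6 to 890.1). The T-cell kinase gene Txk rose from 0.183 to 29.6 CPM (7.26). Spata48, Slc10a4 and Spock1 had 2 counts each over the GFP libraries and reached 27.9, 20.4 and 14.5 CPM. The remaining members of the 12 are the chemokines Cxcl6 and Cxcl2, described with the inflammatory genes.

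The 12 largest falls included genes of cardiac muscle, of the extracellular matrix and of other tissues. Tnni3k, a heart-restricted kinase that binds cardiac troponin I, stood at 55.3, 59.2 and 57.6 CPM with GFP and 0.1598, 0.337 and 0.322 CPM with the shRNA (log2 fold change -7.66, SE 0.29, adjusted p = 8.60e-11). Eln, which encodes elastin, stood at 1576, 1708 and 1651 CPM with GFP and 14.2, 17.6 and 15.3 CPM with the shRNA (log2 fold change -6.71, SE 0.2, adjusted p = 2.03e-11). Lrrc10, a heart-restricted leucine-rich repeat protein gene, and Selenbp1, which encodes a selenium-binding oxidase, had 0 counts in all 3 shRNA libraries. They were at least 72.6-fold and at least 94.7-fold lower, counting 3 reads for the whole shRNA group as the floor, although their GFP libraries were themselves uneven, with Lrrc10 at 5.34, 16.2 and 13.8 CPM. Cox8b, a cytochrome oxidase subunit isoform of muscle, fell from 55.9 to 0.279 CPM (-7.63). Tecrl, a gene of the cardiac endoplasmic reticulum, had 2 counts over the shRNA libraries, a ratio of 109.8 (95% exact interval 30.2 to 909). The embryonic myosin gene Myh3 fell from 12.02 to 0.219 CPM (-5.72) and the muscle carbonic anhydrase gene Ca3 fell from 15.5 to 0.2701 CPM (-5.78). Outside muscle, the cartilage proteoglycan gene Acan fell from 33.4 to 0.484 CPM (-6.06), the integrin-like gene Itgbl1 fell from 49.7 to 0.932 CPM (-5.73), and the mesothelial uroplakin gene Upk3b had 1 count left from a mean of 13.3 CPM. Pcare, known from photoreceptor cilia, had 3 shRNA counts, a ratio of 86.9 (95% exact interval 29.6 to 422). Of the 24 genes with the largest rises or falls, 22 also differed directly between the shRNA and the Yap1 vector, beside 62.5% of all genes. The exceptions were Cxcl6 (adjusted p = 0.468) and Cxcl2 (adjusted p = 0.235). For all 24, the Yap1 vector mean lay on the same side of the GFP mean as the shRNA mean. With that vector, for example, Hey1 was at 4.98 CPM and Eln at 115 CPM.

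**Figure D2:**
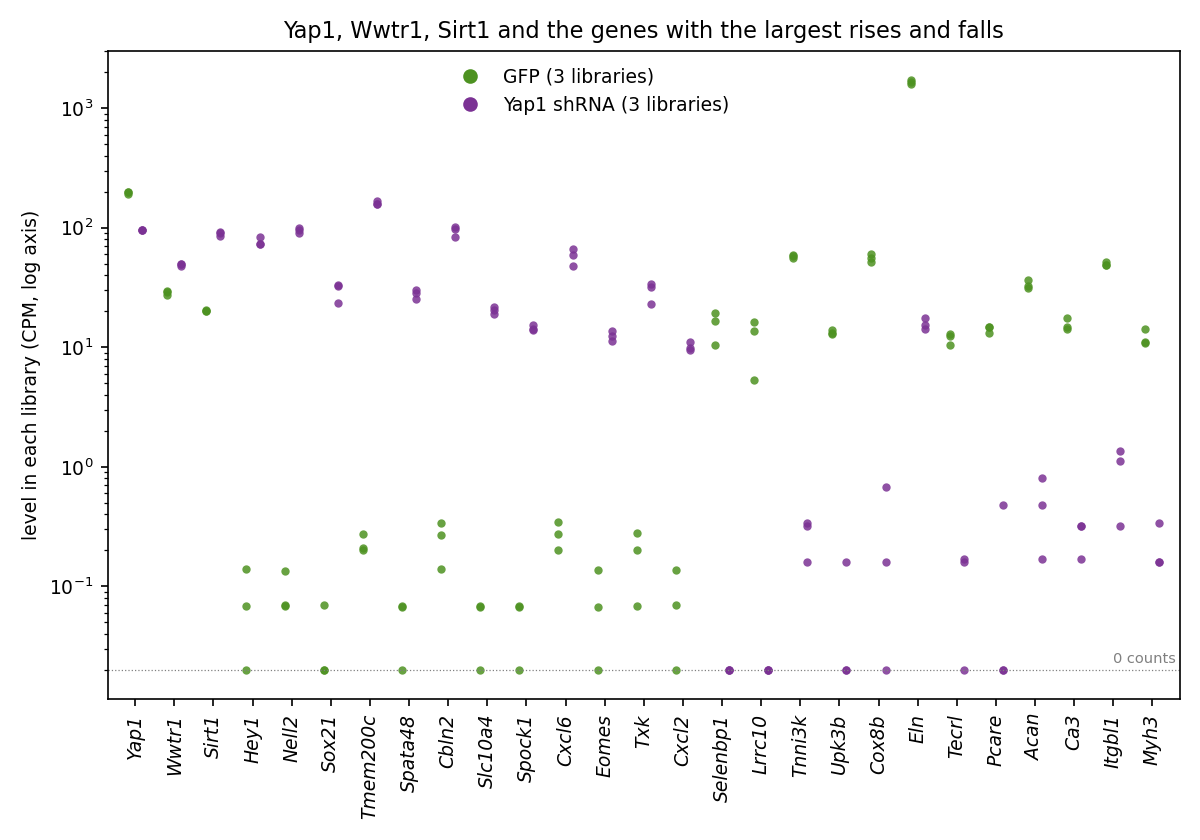
Level in each library (CPM, log axis) of Yap1, Wwtr1, Sirt1 and the genes with the 12 largest rises and 12 largest falls, with each point a library and libraries without a count drawn on the dotted line. The 24 genes were chosen among those whose groups do not overlap, which holds for 80.2% of all genes tested. Most rises start from under 1 CPM with GFP.

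Most contractile genes were lower. In a list of the main sarcomere proteins, 27 of 29 tested members were called lower and 0 higher, with a median log2 fold change of -3.33 against -0.01 for all genes. Broader annotation was less one-sided: in the GO term sarcomere 32 of 48 tested members were called lower and 11 higher (median -0.87), and in the Reactome term for muscle contraction 85 of 122 tested members were called lower and 22 higher (median -1.05). The summed level of the list ranged from 61126 to 62676 CPM with GFP and from 6628 to 7495 CPM with the shRNA. Myh6, the alpha myosin heavy chain, stood at 6560, 6433 and 6308 CPM with GFP and 125, 151 and 134 CPM with the shRNA (log2 fold change -5.56, SE 0.21, adjusted p = 9.02e-11), and its level with the Yap1 vector was 442 CPM. Myh7, the beta myosin heavy chain, stood at 10927, 10474 and 10280 CPM with GFP and 279.8, 320.4 and 278 CPM with the shRNA (-5.17). Actc1, the cardiac actin, stood at 15596, 16198 and 17086 CPM with GFP and 323, 461 and 433 CPM with the shRNA (-5.33). For all 3, each shRNA library lay far below every GFP library. The ventricular light chain Myl2 fell from 239.9 to 4.96 CPM (-5.6), the atrial light chain Myl7 from 39.3 to 1.69 CPM (-4.53), and the Z-disc gene Ldb3 from 642 to 29.3 CPM (-4.46). Myom3, an M-band protein gene named after its values were seen, was not called (adjusted p = 0.491). Paralogous pairs such as Myh6 and Myh7, or Actc1 and Acta1, share sequence, so reads may have been assigned to the wrong member of a pair. Tested directly against the Yap1 vector, 24 members were called lower with the shRNA and 2 higher, beside 31.2% and 31.3% of all genes.

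TEAD factors bind a short DNA sequence, shown here in the start regions of 2 of the genes that fell most, Tnni3k and Myh6. Both regions are from the RefSeq annotation of GRCr8, from 250 bases before to 50 after the start, read 5′ to 3′ on the gene's strand, and the capitals mark GGAATG or its reverse complement.
Tnni3k (chr2:246664900-246665199, minus strand): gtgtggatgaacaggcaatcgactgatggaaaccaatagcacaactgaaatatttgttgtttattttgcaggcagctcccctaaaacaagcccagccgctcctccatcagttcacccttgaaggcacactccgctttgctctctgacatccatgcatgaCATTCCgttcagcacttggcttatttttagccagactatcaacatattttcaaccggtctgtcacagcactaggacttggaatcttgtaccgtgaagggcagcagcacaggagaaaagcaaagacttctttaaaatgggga
Myh6 (chr15:32411648-32411947, minus strand): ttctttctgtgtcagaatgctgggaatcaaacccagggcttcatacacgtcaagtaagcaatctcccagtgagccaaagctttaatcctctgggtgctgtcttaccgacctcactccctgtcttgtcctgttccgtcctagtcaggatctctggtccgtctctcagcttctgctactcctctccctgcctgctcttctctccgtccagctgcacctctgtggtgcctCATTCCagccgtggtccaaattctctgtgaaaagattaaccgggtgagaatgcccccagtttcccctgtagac
The letters occurred in 8 of 24 sarcomere genes with a start region and in 6 of 20 YAP/TEAD target genes, searched on both strands, and in 14.2% of all 33469 start regions of that length. A gene counted if any of its start regions matched, while the share of all counts each region, so the measures are not alike. A match describes the sequence and does not show that a factor binds there.

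Genes of calcium handling and electrical activity were lowered in most but not all cases. In that list, 24 of 30 tested members were called lower and 4 higher (median -1.24). Phospholamban (Pln), the brake on the calcium pump of the sarcoplasmic reticulum, stood at 1429, 1571 and 1476 CPM with GFP and 53.5, 55.5 and 66.03 CPM with the shRNA (log2 fold change -4.68, SE 0.16, adjusted p = 3.83e-11). The pump itself, Atp2a2, fell from 2404 to 678 CPM (-1.83). Ryr2, the calcium release channel, fell from 439 to 31.5 CPM (-3.8), and the calcium buffer Casq2 fell from 862 to 81.5 CPM (-3.4). The T-type channel gene Cacna1g fell from 195 to 13.3 CPM (-3.87). Of the members called higher, 1 rose at least 2-fold, and the highest log2 fold change of the list was 4.21. Smaller rises included the calcium channel subunit Cacna2d1 (from 116 to 149 CPM, 0.37), the inward rectifier Kcnj2 (from 21.4 to 24.8 CPM, 0.22) and the kinase Camk2d (from 72.2 to 82.1 CPM, 0.19), whose libraries overlapped. Kcnj2 was not called without GFP replicate 1 or 3 or shRNA replicate 1 or 2 (adjusted p = 0.0569 to 0.107), nor Camk2d without GFP replicate 3 or shRNA replicate 1 or 2 (0.0657 to 0.16).

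The fetal and hypertrophy genes, which rise in stressed or immature heart muscle, were mostly lower. Of this list, 11 of 14 tested members were called lower and 3 higher (median -1.78). The natriuretic peptide gene Nppa stood at 3111, 2899 and 3192 CPM with GFP and 309, 437 and 366 CPM with the shRNA (log2 fold change -3.05, SE 0.12, adjusted p = 1.09e-10), and its mean with the Yap1 vector was 1984 CPM. Nppb fell from 991 to 244 CPM (-2.02), skeletal actin (Acta1) fell from 708 to 70.3 CPM (-3.33) and the slow troponin I gene Tnni1 fell from 691 to 37.02 CPM (-4.23). Rises were limited to a calcineurin inhibitor gene, Rcan1 (from 319.6 to 462 CPM), the actin-binding protein gene Xirp2 (from 546 to 769.9 CPM) and, from a low level, Ankrd23 (from 1.34 to 3.48 CPM), chosen after its values were seen.

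Transcription factors of the cardiac programme fell less than the genes of the sarcomere. In their list, 16 of 29 tested members were called lower and 6 higher (median -0.35). The largest falls were of regulators of oxidative metabolism: Ppara, a fatty acid receptor, fell from 25.7 to 4.78 CPM (-2.42), and its coactivator Ppargc1a fell from 31.5 to 10.5 CPM (-1.58). Nkx2-5, a founding factor of the heart field, fell from 160.4 to 72.4 CPM (-1.15), Srf, which drives actin and myosin genes, from 189 to 99.1 CPM (-0.93), and Gata4 from 331 to 259 CPM (-0.35). Higher levels were found for Tbx3, which represses the working muscle programme in the conduction system (from 5.17 to 14.2 CPM), and Mef2a (from 257 to 348 CPM). Against the Yap1 vector, 11 of the 29 were called higher and 7 lower, beside 31.3% and 31.2% of all genes.

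Markers of other cells in these cultures moved as well. All 10 cardiomyocyte markers were called lower, and their summed level ranged from 35537 to 36994 CPM with GFP and from 1999 to 2281 CPM with the shRNA. Their defining markers were not at 0: Tnnt2 was still at 504 CPM. Of the fibroblast markers, 9 of 10 tested members were called lower and 1 higher, and the sum ranged from 19292 to 20553 CPM with GFP and from 7885 to 8622 CPM with the shRNA; the exception was decorin, Dcn (from 27.1 to 94.8 CPM). Smooth muscle and pericyte markers had sums from 8785 to 9273 CPM with GFP and from 3424 to 3835 CPM with the shRNA. Endothelial markers, of which 7 of 8 were called higher, were scarce, with sums from 46 to 47.04 CPM with GFP and from 71.5 to 75.3 CPM with the shRNA. Of the macrophage markers, 5 of 8 tested members were called lower and 1 higher, with sums from 92.8 to 111 CPM with GFP and from 38.99 to 57.5 CPM with the shRNA. Epicardial markers had sums from 81.3 to 84.7 CPM with GFP and from 79.3 to 88.9 CPM with the shRNA, with the groups overlapping. The members behind that sum did move: 4 of 8 were called lower, all 4 at least 2-fold, and 3 higher (median -1.15). The 4 tested neural markers had sums from 39.3 to 40.7 CPM with GFP and from 136 to 157 CPM with the shRNA. Most of that sum was Tubb3 (from 32.99 to 139.5 CPM), and of the 4 markers 2 were called higher and 1 lower. No erythroid marker passed the filter on low counts. In these bulk samples, fewer cells of a type and less RNA of a gene per cell cannot be told apart, and the part of these markers in the other gene groups was not tested.

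**Figure D3:**
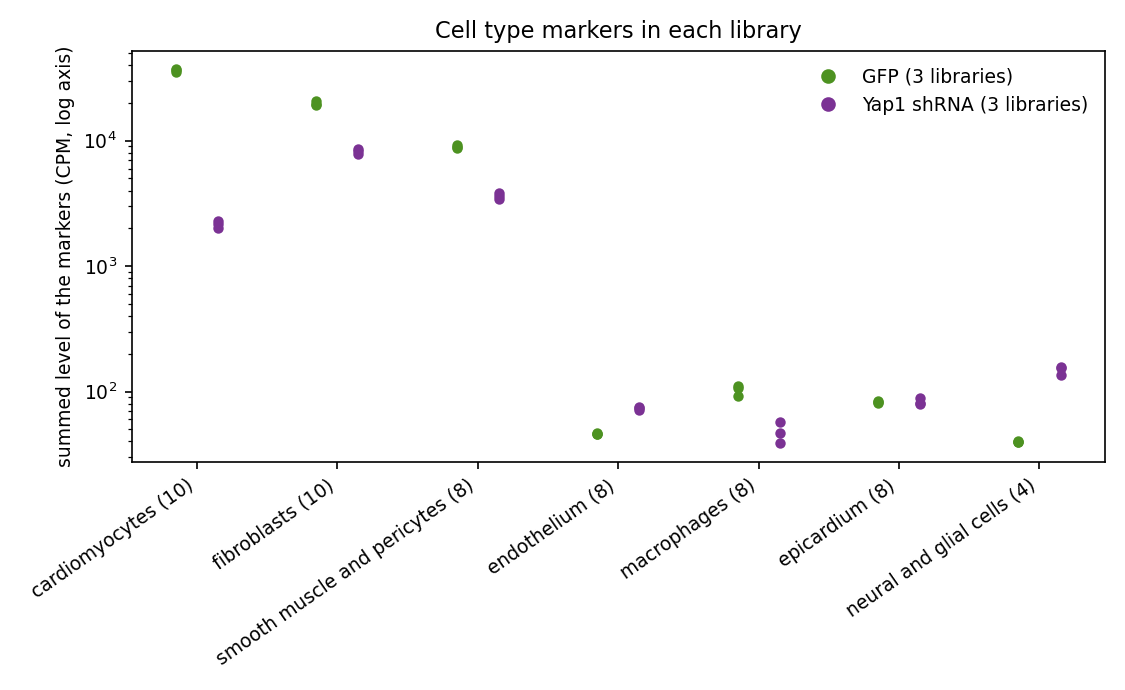
Summed level of the tested markers of each cell type in every library (CPM, log axis), with the number of markers in brackets. Cardiomyocyte, fibroblast and smooth muscle sums were lower in all 3 shRNA libraries than in any GFP library, while at much lower levels the macrophage sum was lower and the endothelial and neural sums were higher.

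Most nuclear genes of mitochondrial energy production were lower. In the KEGG term for oxidative phosphorylation, 94 of 114 tested members were called lower and 17 higher (median -1.34). With the Yap1 vector the median of this term against GFP was -0.86, in the same direction. Tested directly against that vector, 85 members were called lower and 13 higher with the shRNA, beside 31.2% and 31.3% of all genes. In the GO term for respiratory complex I, the entry point for electrons from NADH, 39 of 40 tested members were called lower and 0 higher. Cox6a2, the muscle isoform of cytochrome oxidase subunit 6a, stood at 1202, 1215 and 1169 CPM with GFP and 172, 196 and 198 CPM with the shRNA (log2 fold change -2.67, SE 0.1, adjusted p = 6.78e-11). Cox7b fell from 275 to 46.9 CPM (-2.55), and Atp5f1b, the catalytic subunit of ATP synthase, fell from 3483 to 1201 CPM (-1.54). Cox4i2, the subunit isoform known for its induction by low oxygen, was an exception at 3.6 CPM with GFP and 10.8 CPM with the shRNA (1.58). For the citrate cycle, 25 of 29 tested members were called lower and 1 higher (median -1.04). Cytosolic malate dehydrogenase (Mdh1), a part of the shuttle that carries NADH electrons into mitochondria, stood at 506, 565 and 534 CPM with GFP and 103, 109 and 113 CPM with the shRNA (-2.31). The pyruvate dehydrogenase subunit Pdha1 fell from 1120 to 349 CPM (-1.68) and the dehydrogenase subunit Sdha from 422 to 132 CPM (-1.68). Genes encoded in mitochondrial DNA were not analysed here. In the Reactome term for mitochondrial translation, 58 of 79 tested members were called lower and 7 higher (median -0.57).

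Catabolism of branched-chain amino acids was the KEGG term with the largest share of genes at least 2-fold lower, 68.2% of its members against 16.6% of all genes. Of these, 38 of 44 tested members were called lower and 4 higher (median -1.44). With the Yap1 vector the median of this term against GFP was -0.765, in the same direction. Tested directly against that vector, 29 members were called lower and 6 higher with the shRNA, beside 31.2% and 31.3% of all genes. The first step of the pathway showed an isoform difference. Bcat2, the mitochondrial aminotransferase of muscle, fell from 54.6 to 14.7 CPM (-1.89), while Bcat1, the cytosolic form, rose from 233 to 709 CPM (1.6). Bckdhb, a subunit of the next enzyme, the branched-chain ketoacid dehydrogenase, fell from 31.7 to 6.43 CPM (-2.3). Further down, Mccc2 fell from 78.1 to 13.5 CPM (-2.53) and Ivd fell from 49.1 to 11.98 CPM (-2.03).

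In fatty acid degradation, 25 of 33 tested members were called lower and 7 higher (median -0.95). Lower enzymes of the beta-oxidation spiral included Acadm (from 144 to 40.96 CPM, -1.82) and Echs1 (from 70.6 to 19.2 CPM, -1.88). The outer-membrane carnitine transferases rose instead, Cpt1b (from 65.6 to 109.7 CPM, 0.74) and Cpt1a (from 54.5 to 72.4 CPM, 0.41), while the inner-membrane enzyme Cpt2 fell from 56.1 to 18.3 CPM (-1.62).

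Glucose genes were more often lower than higher. In glycolysis and gluconeogenesis, 31 of 48 tested members were called lower and 9 higher (median -0.53). The muscle phosphoglycerate mutase gene Pgam2 fell from 16.6 to 0.3796 CPM (-5.41), muscle phosphofructokinase (Pfkm) fell from 139.6 to 17.1 CPM (-3.03) and muscle enolase (Eno3) fell from 47.8 to 7.02 CPM (-2.77). Ldhb, the heart form of lactate dehydrogenase, stood at 719, 799 and 776 CPM with GFP and 70.3, 77.1 and 75.04 CPM with the shRNA (log2 fold change -3.37, SE 0.11, adjusted p = 2.52e-11). Hexokinase 2 (Hk2) rose from 40.04 to 97.2 CPM (1.28) and the neuronal enolase Eno2 rose from 28.4 to 66.3 CPM (1.23). The insulin-responsive glucose transporter Slc2a4 (GLUT4) stood at 41.1, 48.2 and 47.3 CPM with GFP and 4.16, 6.75 and 6.76 CPM with the shRNA (log2 fold change -2.95, SE 0.19, adjusted p = 9.60e-09). The basal transporter Slc2a1 (GLUT1) rose from 91.97 to 214 CPM (1.22). In the KEGG insulin signalling term, to which Slc2a4 belongs, 45 of 115 tested members were called higher and 47 lower, close to the shares of all genes. In the same term Acacb, the carboxylase that limits fatty acid entry into mitochondria, fell from 92.5 to 12.7 CPM (-2.87).

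Lipid synthesis was lowered as a set of linked enzymes. In the Reactome term for cholesterol biosynthesis, 19 of 21 tested members were called lower and 2 higher (median -1.64). With the Yap1 vector the median of this term against GFP was -1.08, in the same direction. Tested directly against that vector, 14 members were called lower and 3 higher with the shRNA, beside 31.2% and 31.3% of all genes. Fdps, which makes farnesyl diphosphate, stood at 888, 956 and 938 CPM with GFP and 237, 248 and 264 CPM with the shRNA (log2 fold change -1.89, SE 0.07, adjusted p = 6.61e-11). Cyp51, the lanosterol demethylase, fell from 841 to 227 CPM (-1.89), and Hmgcs1, near the start of the pathway, from 503 to 141 CPM (-1.84). Fatty acid desaturases, which put double bonds into fatty acids, were lower as well. Scd2 stood at 1942, 1933 and 1858 CPM with GFP and 248, 226 and 237 CPM with the shRNA (log2 fold change -3.01, SE 0.12, adjusted p = 1.36e-10), Scd fell from 302 to 23.1 CPM (-3.71) and Fads1 from 363 to 41.4 CPM (-3.13). Srebf1, a transcription factor of lipid synthesis, fell from 129 to 33.6 CPM (-1.94).

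Matrix genes divided by function. Elastic fibre genes followed elastin: 21 of 32 tested members were called lower and 6 higher (median -1.04). Fbln5, which organises elastin on microfibrils, stood at 187, 192 and 184 CPM with GFP and 7.19, 7.76 and 9.02 CPM with the shRNA (log2 fold change -4.55, SE 0.16, adjusted p = 4.96e-11), and Fbln2 fell from 503 to 124 CPM (-2.02). In the GO term for collagen trimers, 35 of 48 tested members were called lower and 9 higher (median -0.996). Basement membrane collagen Col4a3 fell from 54.7 to 1.19 CPM (-5.5) and fibrillar Col11a1 from 274 to 22.7 CPM (-3.6). The abundant Col1a1 fell from 12538 to 6383 CPM (-0.97) and Col3a1 from 5227 to 1128 CPM (-2.21). Col7a1, the anchoring fibril collagen, was an exception (from 3.56 to 21.7 CPM, 2.61). Secreted regulators of the matrix went both ways: in the matricellular and protease list, 13 of 25 tested members were called lower and 11 higher, beside 39.1% and 39.2% of all genes. Ccn5 fell from 250 to 26.6 CPM (-3.23), Ccn3 from 271 to 54.3 CPM (-2.32) and the crosslinking enzyme Lox from 344 to 109.8 CPM (-1.65). The gelatinase Mmp9 rose from 1.34 to 26.9 CPM (4.31) and osteopontin (Spp1) from 126 to 319 CPM (1.34).

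**Figure D4:**
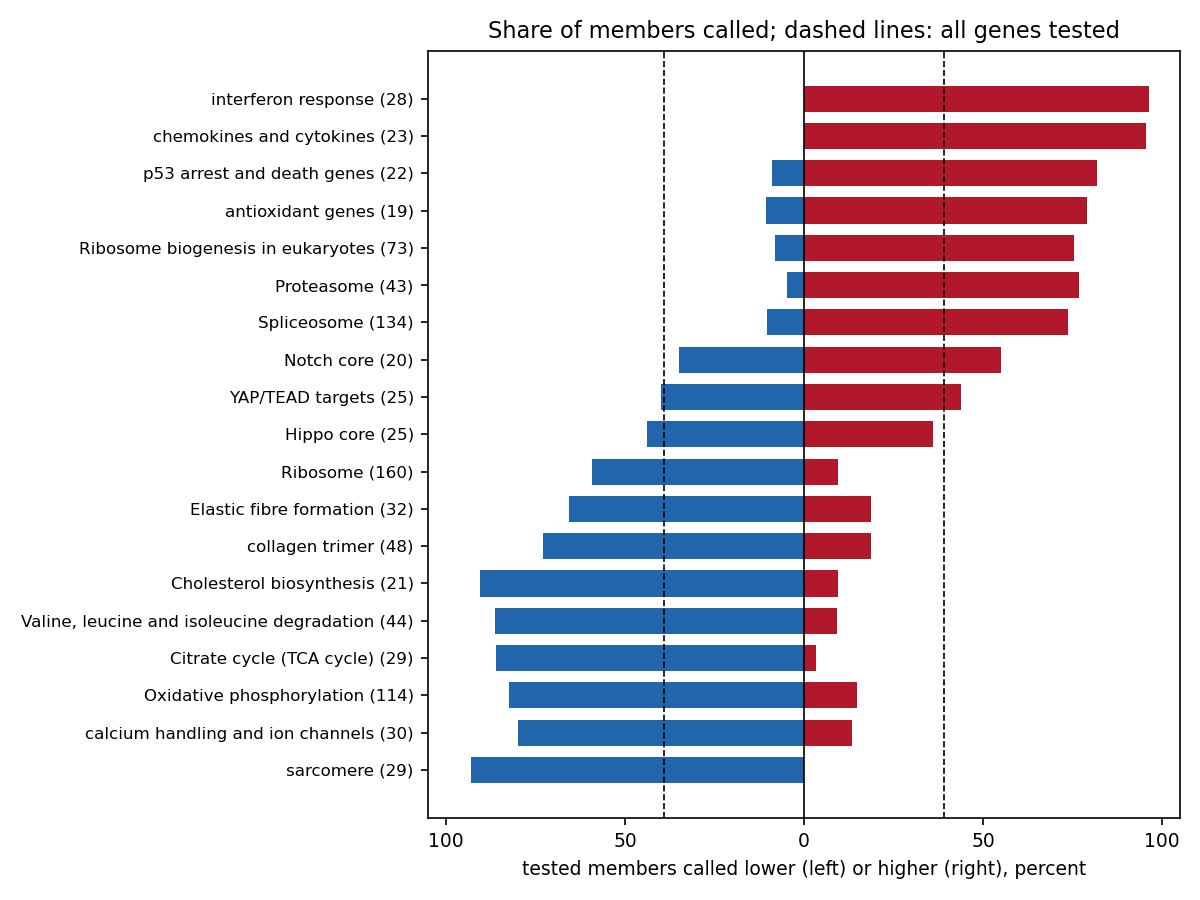
Percent of tested members called lower (bars to the left) and higher (bars to the right) in gene lists and annotation terms, with the number of tested members in brackets. Dashed lines mark the shares of all 13708 genes, 39.1% lower and 39.2% higher. The sarcomere list and the cholesterol term lie far to the left of them, the interferon and chemokine lists far to the right, and the YAP/TEAD targets and Hippo genes near the lines.

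The genes most closely tied to YAP did not move as a block. In the list of YAP/TEAD targets, 11 of 25 tested members were called higher and 10 lower, shares near those of all genes. The median was 0.07 and became -0.07 with upper quartile scaling and -0.03 once the length trend described below was taken out, so it has no stable sign. Among the falls, Ccn2 (CTGF), often used as a readout of YAP, stood at 2892, 2843 and 2903 CPM with GFP and 1438, 1545 and 1563 CPM with the shRNA (log2 fold change -0.93, SE 0.05, adjusted p = 3.89e-09). Ankrd1, a titin-associated stress gene, stood at 5613, 5922 and 5987 CPM with GFP and 1359, 1805 and 1681 CPM with the shRNA (-1.86), Fstl1 fell from 1745 to 785 CPM (-1.15) and the mitotic survivin gene Birc5 fell from 14.3 to 7.23 CPM (-0.98). Among the rises, Gadd45a, a damage-induced arrest gene that p53 also controls, stood at 57.2, 62.2 and 59.1 CPM with GFP and 504, 488 and 544 CPM with the shRNA (log2 fold change 3.11, SE 0.11, adjusted p = 6.58e-11). Igfbp3 rose from 31.3 to 117 CPM (1.91), and the YAP-binding protein gene Amotl1 from 84.7 to 170.3 CPM (1.01). Tested directly against the Yap1 vector, 10 were called higher and 10 lower of the 25, beside 31.3% and 31.2% of all genes.

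In the Hippo core list, 11 of 25 tested members were called lower and 9 higher (median -0.09, and 0.11 on the deposited TPM), with 7 lower without shRNA replicate 2. The shares over all genes were 39.1% lower and 39.2% higher. The kinases that restrain YAP went both ways: Lats2, itself a YAP target, rose from 131 to 253 CPM (0.95), and Map4k4, which activates LATS, from 153 to 455 CPM (1.57). Stk3, the MST2 kinase, went the other way (from 35.5 to 21.8 CPM, -0.7). The scaffold gene Wwc1 (KIBRA) rose from 4.86 to 15.3 CPM (1.65). Among YAP's partners, Tead3 fell from 78.1 to 48.1 CPM (-0.7). The most abundant, Tead1, stood at 445, 413 and 407 CPM with GFP and 402, 367 and 347 CPM with the shRNA (log2 fold change -0.18, SE 0.07, adjusted p = 0.0407). Its call was lost without GFP replicate 1 or 2 or shRNA replicate 2 or 3 (adjusted p = 0.054 to 0.159) and its sign turned on the deposited TPM (0.06), so it has no stable direction. The broader KEGG Hippo term, where 62 of 129 tested members were called higher and 44 lower, was led by genes that it shares with Wnt and TGF-beta signalling, such as Wnt11 (from 0.547 to 19.4 CPM, 5.12), Smad7 (from 50.5 to 385 CPM, 2.93) and Myc (from 48.4 to 354 CPM, 2.87).

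Genes of the Notch pathway, a list that includes Hey1 itself, moved in both directions. In the Notch list, 11 of 20 tested members were called higher and 7 lower (median 0.43), beside 39.2% and 39.1% of all genes. In the KEGG Notch term 25 of 49 tested members were called higher (51.0%) and 20 lower (40.8%). The receptor Notch1 stood at 11.03, 9.88 and 9.65 CPM with GFP and 80.4, 62.6 and 58.1 CPM with the shRNA (log2 fold change 2.72, SE 0.12, adjusted p = 3.17e-10). Rbpj, the DNA-binding partner of the cleaved receptor, rose from 83.02 to 189 CPM (1.19), and the ligand Jag2 from 12.3 to 26.9 CPM (1.13). The ligand Jag1, in contrast, fell from 70.4 to 29.5 CPM (-1.25), and Heyl, a sister gene of Hey1, fell from 15.9 to 3.16 CPM (-2.33). Hey1 and Heyl, both known as targets of the pathway, thus went in opposite directions.

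Many interferon-response genes were called higher. In a list of 30 genes known for their induction by interferon, 27 of 28 tested members were called higher and 0 lower (median 4.52). Removal of the length trend described below kept only genes above a minimum level in every GFP library. Of the 14 members still tested, 13 were called higher, with a median of 2.19. Members scarce with GFP were dropped, so this median and 4.52 cover different genes. Broader terms, which also hold signalling components and regulators, were less one-sided: for interferon signalling in Reactome 26 of 40 tested members were called higher and 11 lower (median 0.63), and for the GO term defense response to virus 75 of 116 tested members were called higher and 23 lower (median 0.6). For the list, the summed level ranged from 279 to 285 CPM with GFP and from 1251 to 1689 CPM with the shRNA. The antiviral enzyme viperin (Rsad2) stood at 0.416, 0.271 and 0.476 CPM with GFP and 42.8, 56.4 and 32.1 CPM with the shRNA (log2 fold change 6.78, SE 0.35, adjusted p = 1.10e-09). Mx2, an antiviral GTPase, stood at 2.78, 0.812 and 0.136 CPM with GFP and 98.9, 145 and 92.1 CPM with the shRNA (6.49), and Usp18, which removes the ubiquitin-like ISG15 from proteins, rose from 0.662 to 48.2 CPM (6.16). All 28 tested members were lower with the shRNA than with the Yap1 vector in the direct test, beside 31.2% of all genes. For Rsad2 the mean was 43.7 CPM with the shRNA and 150.3 CPM with the Yap1 vector (adjusted p = 1.01e-06), and for Mx2 112 and 441 CPM (adjusted p = 1.92e-06). Against the Yap1 vector the Reactome term was divided, where 17 were called higher and 14 lower, beside 31.3% and 31.2% of all genes. By these calls the list stood highest with added Yap1, lower with the hairpin and, for 27 of 28 members, lowest with GFP. Reads of near-identical members such as Mx1 and Mx2 or the Oas1 genes are hard to divide.

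Chemokine and cytokine genes were mostly higher. In a list of them, 22 of 23 tested members were called higher and 0 lower (median 4.17), and the sum ranged from 391 to 415 CPM with GFP and from 2464 to 2735 CPM with the shRNA. The median was 2.62 on log2(TPM + 1), and 1.97 over the 11 members still tested without the length trend, of which 10 were called higher. These 11 leave out members scarce with GFP, so 1.97 and 4.17 cover different genes. In the wider KEGG term for cytokines and their receptors, 77 of 136 tested members were called higher and 33 lower (median 0.52). Over the 90 members still tested without the length trend the median was 0.10. The neutrophil chemokine Cxcl1 stood at 2.78, 2.71 and 4.21 CPM with GFP and 298, 314 and 299 CPM with the shRNA (log2 fold change 6.55, SE 0.11, adjusted p = 6.59e-13). Cxcl6 stood at 0.347, 0.203 and 0.272 CPM with GFP and 66, 59.6 and 47.4 CPM with the shRNA (7.66). Cxcl2 reached 10.1 CPM, a ratio of 148 (95% exact interval 49.9 to 724) from 3 GFP counts. The monocyte chemokine Ccl2 stood at 51.6, 42.7 and 40.8 CPM with GFP and 1020, 1194 and 1096 CPM with the shRNA (log2 fold change 4.62, SE 0.09, adjusted p = 1.79e-12) and Ccl7 rose from 4.16 to 227 CPM (5.77). Colony-stimulating factor 1 (Csf1), which maintains macrophages, rose from 209.8 to 426 CPM (1.02). Against the Yap1 vector, 15 members were lower and 1 higher, beside 31.2% and 31.3% of all genes. Ccl2 did not differ beyond the spread (1103 against 1211 CPM, log2 difference -0.14, adjusted p = 0.149). The macrophage markers given above summed lower with the shRNA than with GFP. In the KEGG term for IL-17 signalling, which shares these chemokines, 60 of 74 tested members were called higher and 8 lower, and its Lcn2, an iron-sequestering protein of inflammation, rose from 1.39 to 161 CPM (6.84). In the KEGG term for antigen processing and presentation, 35 of 54 tested members were called higher and 10 lower (median 0.8). For this term, 12 members were called higher and 32 lower against the Yap1 vector, beside 31.3% and 31.2% of all genes. Its peptide transporter Tap1 rose from 16.4 to 63.8 CPM (1.96) and RT1-A2 rose from 43.1 to 97.1 CPM (1.17), although reads of the RT1 genes are hard to divide.

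Start regions of members of both lists carry the short sequences known for interferon and NF-kappa-B control. Capitals mark GAAA repeated after any 2 bases, the core of the interferon-stimulated response element (ISRE), in Ifit3, and GGG and TTTCC parted by any 2 bases, an NF-kappa-B sequence, in the chemokines, each searched on both strands of the RefSeq start regions of GRCr8. Ifit3 stood at 1.53, 0.8796 and 1.02 CPM with GFP and 24.5, 34.9 and 20.1 CPM with the shRNA (4.52).
Ifit3 (chr1:241527076-241527375, plus strand): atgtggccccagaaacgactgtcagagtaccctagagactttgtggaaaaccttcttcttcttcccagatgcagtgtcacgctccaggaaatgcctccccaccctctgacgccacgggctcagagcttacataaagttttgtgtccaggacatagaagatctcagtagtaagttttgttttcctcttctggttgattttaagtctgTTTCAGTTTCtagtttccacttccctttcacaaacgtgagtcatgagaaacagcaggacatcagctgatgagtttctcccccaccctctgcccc
Cxcl6 (chr14:17596368-17596667, minus strand): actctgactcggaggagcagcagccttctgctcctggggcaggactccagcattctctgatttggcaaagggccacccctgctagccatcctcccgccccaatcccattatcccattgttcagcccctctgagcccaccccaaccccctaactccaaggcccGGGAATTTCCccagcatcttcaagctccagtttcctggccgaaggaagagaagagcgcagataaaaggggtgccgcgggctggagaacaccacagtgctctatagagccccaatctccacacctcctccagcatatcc
Cxcl2 (chr14:17467206-17467505, minus strand): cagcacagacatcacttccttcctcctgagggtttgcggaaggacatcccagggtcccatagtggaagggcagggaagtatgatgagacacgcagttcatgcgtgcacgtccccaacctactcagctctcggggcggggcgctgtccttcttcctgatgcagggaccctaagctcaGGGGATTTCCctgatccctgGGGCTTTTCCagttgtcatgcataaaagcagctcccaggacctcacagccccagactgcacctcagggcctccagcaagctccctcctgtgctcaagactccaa
The ISRE letters occurred in 13 of 18 interferon-list genes with a start region and in 3.92% of all 33469 start regions. The NF-kappa-B letters occurred in 5 of 15 genes of the chemokine list and in 1.53% of all start regions. Genes were again counted by any of their start regions, and the shares of all by region. Cxcl2 holds 2 matches.

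**Figure D5:**
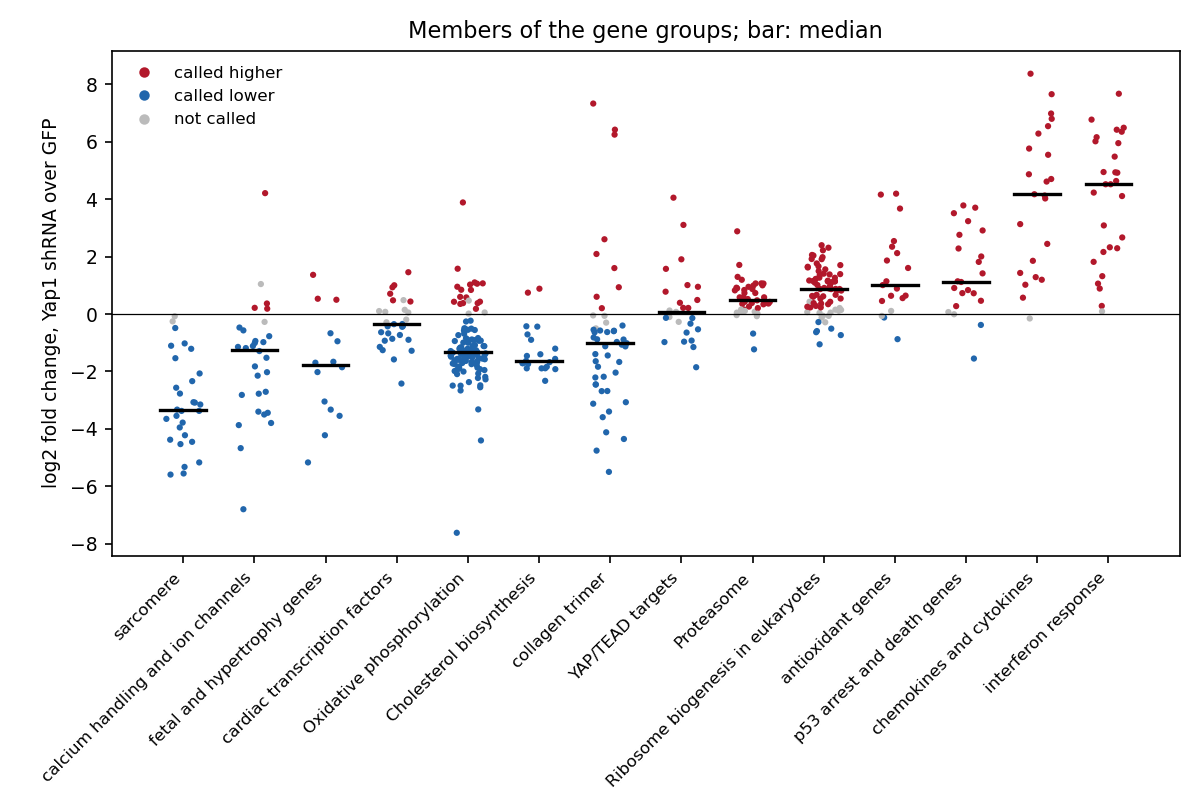
Log2 fold change of Yap1 shRNA over GFP for each tested member of 14 gene lists and annotation terms, with a bar at the median and grey points for members not called. Sarcomere members lie below 0 and interferon and chemokine members almost all above it, while YAP/TEAD targets spread on both sides.

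Stress genes of several kinds were higher in the shRNA libraries. In the antioxidant list, 15 of 19 tested members were called higher and 2 lower (1 lower without GFP replicate 2 or 3 or shRNA replicate 1 or 3, median 1.01). With the Yap1 vector the median of this list against GFP was 0.74, in the same direction. Tested directly against that vector, 11 members were called higher and 3 lower with the shRNA, beside 31.3% and 31.2% of all genes. Heme oxygenase 1 (Hmox1), which degrades free heme, stood at 84.6, 95.5 and 94.7 CPM with GFP and 1524, 1822 and 1683 CPM with the shRNA (log2 fold change 4.19, SE 0.15, adjusted p = 6.61e-11). Sulfiredoxin (Srxn1) rose from 34.5 to 441 CPM (3.68), thioredoxin reductase 1 (Txnrd1) rose from 169 to 984 CPM (2.54) and Osgin1 rose from 10.8 to 193 CPM (4.16). The cystine carrier Slc7a11 rose from 38.1 to 166 CPM (2.12) and the glutathione synthesis subunit Gclm rose from 22.9 to 116 CPM (2.35). Gpx1, which uses glutathione to reduce peroxides, fell instead (from 421 to 229.5 CPM, -0.88). The start region of Gclm is shown with a match to TGACNNNGC, the core of the element bound by NRF2, in capitals. Both strands were searched, and this match reads as the reverse complement.
Gclm (chr2:213031885-213032184, plus strand): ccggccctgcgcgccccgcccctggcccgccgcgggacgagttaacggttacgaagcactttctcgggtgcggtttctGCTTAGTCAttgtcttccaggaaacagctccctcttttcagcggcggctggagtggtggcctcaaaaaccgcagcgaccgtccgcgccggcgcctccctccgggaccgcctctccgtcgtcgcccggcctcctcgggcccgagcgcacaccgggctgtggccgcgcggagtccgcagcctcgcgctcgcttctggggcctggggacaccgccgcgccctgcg
In the KEGG term for glutathione metabolism, 16 of 49 tested members were called higher and 19 lower, beside 39.2% and 39.1% of all genes. The letters in capitals occurred in 5 of 16 genes of the antioxidant list with a start region, counted by any of their regions, and in 12.1% of all start regions.

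In the list of p53 arrest and death genes, 18 of 22 tested members were called higher and 2 lower (median 1.13). With the Yap1 vector the median of this list against GFP was 0.62, in the same direction. Tested directly against that vector, 16 members were called higher and 2 lower with the shRNA, beside 31.3% and 31.2% of all genes. The KEGG p53 signalling term, which holds further genes, was less one-sided, and 37 of 68 tested members were called higher and 24 lower (median 0.26). Mdm2, the ubiquitin ligase that p53 induces to limit itself, stood at 70.6, 64.9 and 69.8 CPM with GFP and 924, 918 and 986 CPM with the shRNA (log2 fold change 3.78, SE 0.11, adjusted p = 1.82e-11). The cell cycle inhibitor p21 (Cdkn1a) stood at 153, 158 and 169 CPM with GFP and 1535, 1498 and 1486 CPM with the shRNA (log2 fold change 3.24, SE 0.07, adjusted p = 2.97e-12). Gdf15, a secreted stress signal, rose from 36.4 to 475 CPM (3.71), and Sesn2 from 58.5 to 668 CPM (3.51), while its paralog Sesn1 fell (from 19.6 to 15.1 CPM, -0.38). In the KEGG cell cycle term, 57 of 120 tested members were called higher and 52 lower (median 0.10), beside 39.2% and 39.1% of all genes. Its largest rises included p21 and Mdm2, and its falls included cyclin D3 (Ccnd3, from 268 to 108 CPM, -1.31). The proliferation markers Mki67 (from 119 to 49.7 CPM, -1.26) and Top2a (from 87.3 to 29.5 CPM, -1.57), chosen after their values were seen, fell. These markers do not stand for the wider terms: for KEGG DNA replication, 15 of 35 tested members were called higher and 12 lower (median 0.11).

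Several genes of protein quality control rose. The inducible heat shock protein Hspa1b rose from 1.09 to 84.1 CPM (6.25), and the chaperone Hsp90aa1 stood at 697, 665 and 665 CPM with GFP and 4182, 4132 and 4412 CPM with the shRNA (log2 fold change 2.65, SE 0.08, adjusted p = 2.11e-11). Its cofactor Hsph1 rose from 85.3 to 1067 CPM (3.65). Sqstm1 (p62), which takes ubiquitinated proteins to autophagosomes, rose from 299 to 3251 CPM (3.44), and the chaperone partner Bag3 rose from 153 to 850.4 CPM (2.47). In the KEGG proteasome term, 33 of 43 tested members were called higher and 2 lower (median 0.48), with smaller changes such as that of Psmd11 (from 94.2 to 308 CPM, 1.71). The immunoproteasome subunit Psmb8 rose from 2.35 to 17.4 CPM (2.88). Lysosomal genes did not follow: 70 of 111 tested members were called lower and 23 higher (median -0.5). For protein processing in the endoplasmic reticulum, 80 of 157 tested members were called higher and 55 lower, with the luminal chaperone Hspa5 rising from 1201 to 4335 CPM (1.85) and the stress phosphatase subunit Ppp1r15a from 80.1 to 644 CPM (3.01).

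Genes that assemble ribosomes were mostly higher. In ribosome biogenesis, 55 of 73 tested members were called higher and 6 lower (median 0.87). With the Yap1 vector the median of this term against GFP was 0.40, in the same direction. Tested directly against that vector, 47 members were called higher and 7 lower with the shRNA, beside 31.3% and 31.2% of all genes. Wdr43 stood at 51.8, 48.8 and 52.3 CPM with GFP and 262, 272 and 272 CPM with the shRNA (log2 fold change 2.4, SE 0.08, adjusted p = 4.97e-11), and the small nucleolar RNA-binding protein gene Nop58 rose from 86.2 to 402 CPM (2.22). In the KEGG ribosome term, which covers cytosolic and mitochondrial proteins, 95 of 160 tested members were called lower and 15 higher (median -0.31). That direction turned once transcript length was taken into account. Genes above a minimum level in every GFP library were split into 10 groups of 1163 by length. The shortest group (49 to 782 bases) had a median of -0.49 with 59.2% called lower. The longest group had a median of 0.06 with 38.4% called lower. With the trend of each library with length removed, 79 of 156 ribosome members were called higher and 34 lower (median 0.21), so no direction can be given for this term. With the same step, oxidative phosphorylation kept its direction with 89 of 111 members lower (median -0.93), and mitochondrial translation had 41 of 78 lower (median -0.25). In the spliceosome term, 99 of 134 tested members were called higher and 14 lower (median 0.56), with the splicing factor Srsf7 rising from 69.3 to 206 CPM (1.57) and Hnrnpc from 48.96 to 149 CPM (1.61). Among aminoacyl-tRNA synthetases, cytosolic Sars1 rose from 295 to 1016 CPM (1.78) and Cars rose from 103 to 432 CPM (2.07). In the whole term, 19 of 44 tested members were called higher and 16 lower, beside 39.2% and 39.1% of all genes.

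The sirtuins and the microRNA machinery, which bear on the study's title, moved gene by gene. Among 7 sirtuins, 3 were called higher and 4 lower, beside 39.2% and 39.1% of all genes. Besides Sirt1, the nucleolar Sirt7 stood at 14.99, 15.4 and 14.1 CPM with GFP and 61.7, 53.1 and 54.4 CPM with the shRNA (log2 fold change 1.93, SE 0.1, adjusted p = 1.76e-09), while the small rise of Sirt6 (from 41.9 to 47.7 CPM, adjusted p = 0.0393) was not called without GFP replicate 1 (adjusted p = 0.113), GFP replicate 2 (0.113), shRNA replicate 2 (0.142) or shRNA replicate 3 (0.0875). Sirt3, the main deacetylase of mitochondria, stood at 8.95, 10.5 and 12.1 CPM with GFP and 3.36, 4.39 and 3.87 CPM with the shRNA (log2 fold change -1.44, SE 0.18, adjusted p = 6.08e-06), and Sirt5, also mitochondrial, fell from 56.9 to 38.1 CPM (-0.58). The cytosolic Sirt2 fell from 136 to 95.7 CPM (-0.51). In the microRNA list, 6 of 15 tested members were called higher and 5 lower, near the shares of all genes. At least 2-fold, 4 were higher and 0 lower, beside 19.2% and 16.6% of all genes. The highest log2 fold change of the list was 6.59. The effector Argonaute genes differed: Ago4 rose from 3.05 to 17.6 CPM (2.52) and Ago2, chosen by the same rule, from 15.8 to 49.5 CPM (1.65), while Ago1 fell (from 27.98 to 17.6 CPM, -0.67). Xpo5, which exports microRNA precursors from the nucleus, fell from 66.2 to 46.3 CPM (-0.52). Dicer1, which cuts the precursors, stood at 71.5, 65.8 and 62.6 CPM with GFP and 66, 65.1 and 60.4 CPM with the shRNA and was not called (log2 fold change -0.06, SE 0.07, adjusted p = 0.396).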

How the data were processed

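Poly(A) RNA of 9 libraries, 3 per group, was sequenced with the BGISEQ-500 system. Whether the libraries keep the strand is not given in the sources used here. Among the tools in the submitters' processing notes are RSEM 1.3.1, HISAT2, DESeq2 1.4.5 and Bowtie2, and the genome build is rn6. The authors deposited expected counts per gene, of which 89.4% to 90.6% per library were whole to within 0.005, and TPM scaled within each library. FPKM values deposited by the authors were used only with the counts, to obtain effective lengths. Per the file headers, the authors' table also gives log2 fold changes with p-values and q-values.

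After rounding, the expected counts of the 9 libraries entered 1 edgeR model (version 4.0.16, in R 4.3.3) with a term for group. TMM gave the scaling, and 13708 genes passed filterByExpr. TMM factors were 0.961 to 0.97 with GFP and 0.972 to 0.985 with the shRNA, and the biological coefficient of variation was 7.18%. The quasi-likelihood F test was two-sided with Benjamini-Hochberg adjustment, and the standard error (SE) is the log2 fold change divided by the square root of F. Levels are CPM after TMM scaling. Where a group had 0 counts, a floor of 3 counts for the group was used, and ratios printed for genes at 1 to 3 counts have a 95% Clopper-Pearson (exact) interval, which covers counting error only. Replicates of a group differed beyond sampling noise (chi-square per degree of freedom 2.34 to 4.59 within the GFP and shRNA groups and 4.52 to 11.4 with the Yap1 vector).

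Lists and annotation terms were described by counts and medians without a test. Named were Yap1, Wwtr1, Sirt1, the 12 largest rises and falls and, per list or term, up to 6 called members in the main direction, 3 in the other and 3 of highest level, among genes of at least 5 CPM. For the rises and falls, groups that overlapped and provisional symbols were left out. The comparison, lists and rules were chosen with earlier results of these data known. Some genes that met these rules are not reported here. The fit was tested on simulated data in which 200 of 13708 genes were changed. It recovered 59.7%, 83.6% and 90.9% of changes of 1.5-fold, 2-fold and 4-fold, and 5.45% of its calls were false. In the real data 78.3% of genes were called, so the simulation does not check the scaling where most genes change. Alternatives used other scalings (RLE, library size, upper quartile), DESeq2 1.42.0, voom and limma-trend on log2(TPM + 1) (limma 3.58.1), other filters, a fold minimum, the 6 libraries alone, a replicate block, equal depth, a length trend and each library left out. Start regions came from RefSeq (GRCr8) and matched 10808 of the genes tested, of which 745 had several.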

Additional observations from a re-analysis of the deposited data

How the results depend on the processing

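Of 19 alternative settings, 18 were planned and the removal of a trend with transcript length was added after the data were seen. With a fold minimum of 1.5, 6310 genes were called against GFP (3337 higher, 2973 lower) and 2548 against the Yap1 vector, in place of 10733, 5371, 5362 and 8562. The counts of genes called stayed within a factor of 1.5 of these under every other setting. Leaving out each of the 6 libraries in turn gave 10410 to 10535 calls, 5227 to 5279 higher and 5178 to 5256 lower. The replicate block gave 10752 calls, 5378 higher and 5374 lower. The labels number the replicates alike in each group. Deviations of same-numbered GFP and shRNA libraries correlated at 0.159, 0.132 and -0.005 across 10932 genes, against -0.156 to 0.041 for other pairs. The first 2 values lie above the other pairs and the third within them. Whether same-numbered libraries share a source cannot be told from this, and the main fit did not pair them. The median gene moved from -0.012 to -0.152 with upper quartile scaling and to 0.156 on log2(TPM + 1). Of 179 genes tested one by one, 174 kept their direction and their side of the threshold under every setting that gave a value. The other 5 were Camk2d, Dicer1, Kcnj2, Sirt6 and Tead1, and the cause was not tested. Tead1 reversed to 0.06 on log2(TPM + 1), where it was not called. Of 1728 counts of list members under the alternatives, 1671 stayed within a factor of 1.5. Among the exceptions was the ribosome term, with 44 higher and 74 lower on log2(TPM + 1) and 79 higher and 34 lower with the length trend removed, in place of 15 and 95. With the length trend removed only 11630 genes were tested, those above a minimum FPKM in every GFP library. Among them were 14 of the interferon list, with 13 called higher and a median of 2.19, and 11 of the chemokine list, with a median of 1.97. The medians of 4.52 and 4.17 also cover members scarce with GFP, so the difference cannot be assigned to length. On log2(TPM + 1) the interferon median was 3.06. Shares of promoter motifs by direction of change were void, since 78.8% of tested genes had a start region, and the list shares above have the same limit. The shRNA libraries were thinned with the others to equal depth, which gave 9995 calls among 12938 genes. Depth limits the folds of genes with few reads in 1 group. They are given as bounds at 0 counts and as ratios with counting intervals, or levels alone, at 1 to 3 counts, and fitted log2 fold changes of other genes under about 1 CPM depend on the prior count.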

Other observations

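Some genes kept or changed their level while the deposited values pointed to transcripts of another length. For each gene and library, the count and the FPKM together give the effective length that the authors' quantification assigned to the gene's mix of transcripts. Among 5401 genes with more than 1 transcript, an FPKM of at least 5 and at least 100 counts in all 6 libraries, 88.7% had group means within 0.05 of each other on the log2 scale. Lengths of the groups did not overlap and differed by over 0.2 for 91 genes, 77 of them shorter with the shRNA and 14 longer. Creg1, which encodes a secreted glycoprotein of the lysosomal system, had effective lengths of 1825, 1781 and 1745 bases with GFP and 587, 610 and 593 with the shRNA, a log2 difference of -1.58. Its level rose from 15.6 to 100.1 CPM. Gsk3b, a kinase of insulin and Wnt signalling, had lengths of 3871, 3761 and 3928 bases with GFP and 2430, 2482 and 2540 with the shRNA. The BMP signal carrier Smad5 differed by -0.65. The largest shift upward was that of Ndufv3, a subunit of complex I, with 307, 288 and 303 bases with GFP and 525, 587 and 646 with the shRNA (0.96). These are estimates from the authors' quantification with no test, named after their values were seen.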
